A study of Rattus norvegicus with 2 samples.

Results

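Among the stromal cells of rat meniscus, the fibrocartilage of the knee, a small set carried high counts of Ccl2, the chemokine that draws monocytes. These Ccl2-high fibroblasts were chosen by their own unique molecular identifier (UMI) counts. A cell had to carry at least 5 UMIs of Ccl2 and at least 5 of Dcn, the fibroblast proteoglycan decorin. It had to have no UMI of the leukocyte gene Ptprc or of Pi16, and fewer than 2 of Tnn, 2 of Sfrp2, 5 of Postn and 10 of Chad, limits that keep out other stromal types. The rule found 58 of 14858 kept cells, 55 in the aged and 3 in the young library.

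The study profiled dissociated meniscus by droplet 3' single-cell RNA sequencing, with 1 library from aged and 1 from young rats. Its title names Atf3-carrying senescent chondrocytes of the aged tissue. The labels give no strain, sex, age in weeks or number of pooled animals, and name no treatment, and both libraries passed through protease and collagenase P digestion and a flow sort for live cells. Because there is 1 library per age and the members were picked by their counts, everything that follows is a description with no test, and intervals (95%) cover counting error only.

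Ccl2 and Ccl7 are neighbouring CC chemokine genes whose products act on the receptor CCR2 of monocytes. In fibroblasts, inflammatory cytokines switch them on through NF-kB, and NF-kB in turn induces its own inhibitors, among them the IkB-alpha gene Nfkbia, which ends the response. Immediate early genes such as Egr1, Fos, Jun, Ier3 and the stress factor Atf3 answer within minutes to cytokines, growth factors or the dissociation of tissue.

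For a look at the regulatory letters beside these genes, 21 genes were looked up in RefSeq's promoter table (assembly GRCr8): the 7 markers given for these cells (Ccl2, Ccl7, Ier3, Irf1, Gem, Nfkbia and Atf3) and the genes with the largest ratios below. Of these, 16 had an entry, and Ccl2, Ier3, Gem, Atf3 and S100a8 had none. The kB letters searched were GGGNN followed by TTTCC or by TTCC, on both strands, forms that can overlap each other, in the window from 250 bases before to 50 after the start. They occurred in 7.04% of all 33469 promoters and in 2 of the 16, Nfkbia and Cxcl1. Of 5 other genes read besides, not among the 21 (Egr1, Zfp36, Nfkbiz, Vcam1 and Cxcl2), Nfkbiz, Vcam1 and Cxcl2 also held them. Cxcl2 was hardly found in the aged Ccl2-high cells, in 3 of 55 with at most 2 UMIs. The AP-1 letters TGANTCA, searched on both strands, occurred in 7.33% of all promoters and in 4 of the 16, Ccl7 among them. The 150 bases before the start are shown for these 3 genes because they encode the neighbour of Ccl2, the leading CXC chemokine and the NF-kB inhibitor of these cells. Capitals mark the kB letters in Cxcl1 (minus strand, chr14:17479322-17479471) and Nfkbia (minus strand, chr6:78597073-78597222) and the AP-1 letters in Ccl7 (plus strand, chr10:67513945-67514094).
Cxcl1: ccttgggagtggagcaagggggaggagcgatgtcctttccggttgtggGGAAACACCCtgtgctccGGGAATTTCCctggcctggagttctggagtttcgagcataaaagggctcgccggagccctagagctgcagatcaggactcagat
Nfkbia: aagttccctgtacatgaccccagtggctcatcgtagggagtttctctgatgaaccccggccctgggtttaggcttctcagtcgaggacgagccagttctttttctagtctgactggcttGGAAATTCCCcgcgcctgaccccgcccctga
Ccl7: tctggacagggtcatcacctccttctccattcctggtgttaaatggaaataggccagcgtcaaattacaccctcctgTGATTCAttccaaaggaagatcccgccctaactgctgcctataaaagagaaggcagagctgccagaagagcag
The matches begin 102 and 84 bases before the start of Cxcl1, 31 before that of Nfkbia and 73 before that of Ccl7. A match is a run of letters and not a measured binding site.

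The aged library held 8422 barcodes and the young library 9914, of which 6085 and 8773 were kept, with a median of 3686 and 3846 UMIs. Dcn cells without Ptprc were 8.61% of aged and 1.05% of young kept cells, and had a median of 5841 and 17042.5 UMIs. The 2 libraries shared 18 barcodes, none of them of a Ccl2-high cell. Shares of cells can be set by the digestion and the viability sort.

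The 55 aged Ccl2-high cells made up 0.904% of the kept aged cells (exact Clopper-Pearson interval 0.682 to 1.17) and 10.5% of the 524 aged Dcn cells (8.01 to 13.4). The 3 young cells made up 0.0342% of the kept young cells (0.00705 to 0.0999) and 3.26% of the 92 young Dcn cells (0.678 to 9.23). Without the upper limits on Tnn, Pi16, Sfrp2, Postn and Chad the numbers were 97 of 524 aged (18.5%, 15.3 to 22.1) and 19 of 92 young Dcn cells (20.7%, 12.9 to 30.4). Among Dcn cells the intervals of the 2 libraries overlapped with and without the limits, and the aged share was the larger with them only. Among kept cells the aged share was the larger either way, at 1.59% against 0.217% without the limits. Per cell, the young Dcn cells were sequenced to the greater depth.

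Ccl2 ranged in the 55 aged cells from 5 to 360 UMIs around a median of 31, and 14 of them lay just inside the threshold with 5 to 9 UMIs. Just outside it, 6 aged Dcn cells within the same limits carried 3 to 4 UMIs. The 55 cells held 3996 Ccl2 UMIs, 19.8% of the aged library's 20152. Ptprc cells, the leukocytes, held 61.1%, and the 42 Dcn cells with 5 or more Ccl2 UMIs outside the limits held 10.3%. In the young library the 3 cells held 4.23% of 5174 Ccl2 UMIs and Ptprc cells 64.8%. So most Ccl2 RNA of either library lay in leukocytes.

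The label was checked against marker lists. Of the 14 stromal fibroblast genes named in the files, 13 were found in the aged Ccl2-high cells and made up 3.45% of their UMIs, against 4.85% in the 359 aged Dcn cells without a Ccl2 UMI (Ccl2-free fibroblasts). Thy1, the remaining gene of that list, had no UMI. Of the chondrocyte markers Col2a1, Cnmd, Snorc, Matn3, Col9a1, Col9a2 and Cytl1 had no UMI, and the list summed to 0.316% of UMIs against 0.439% in the 155 Ccl2-free fibroblasts held to the same limits. The rule caps Chad, a member of that list. Endothelial and mast cell markers had no UMI. Macrophage or monocyte markers summed to 0.054% of UMIs, with at most 1.09% in a cell and C1qa, C1qb, C1qc, Fcgr3a and Aif1 at 0, against 0.022% in Ccl2-free fibroblasts and 2.23% in Ptprc cells with 5 or more Ccl2 UMIs. B lineage markers summed to 0.017% against 0.032%, and proliferation genes were found in 4 cells at 0.004%. Fibroblast markers thus outweighed those of macrophages and B lineage cells in the sum, where Dcn and Ptprc are themselves part of the rule. The neutrophil gene S100a8 had a UMI in 20 of the 55 cells, with 98.3% of its UMIs in 1 cell.

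A few members stood apart, and doublets (droplets with more than 1 cell) were not called here. The cell ranked 43 by Ccl2 carried 999 UMIs of the osteoblast gene Bglap and 972 of Col1a1 with 0 of Col3a1. The cell ranked 21 carried 1216 UMIs of S100a8 and 387 of Camp, and neutrophil markers were 22.1% of its UMIs. The cells ranked 2 and 51 carried 2101 and 2352 UMIs of Prg4, the lubricin of the synovial lining. The cells ranked 24 and 28 had nearly the same profile. Over genes with at least 10 summed UMIs their chi-square per degree of freedom was 1.12, about the sampling noise, against 2.75 for the next closest of 1485 pairs and a median of 8.0. Their barcodes differed at 13 of 16 bases. Counted as 1 cell they would leave 54 aged members, and the 160 higher and 402 lower genes counted below would be 159 and 399.

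Values were summed over the cells of a group and scaled to counts per 1000000 UMIs (CPM). The 55 cells summed to 398707 UMIs with a median of 7165 per cell (994 to 21131), the 359 Ccl2-free fibroblasts to 2023246 with a median of 5481 (833 to 35407). Mitochondrial genes gave a median of 3.20% and 3.04% of UMIs. Of 4618 genes with at least 50 summed UMIs, 160 (3.46%) were at least 2-fold higher in the Ccl2-high cells and 402 (8.71%) at least 2-fold lower, with a median log2 ratio of -0.19 over all. TMM scaling, an alternative that puts every ratio 0.20 higher, gave 237 and 273. Because the Ccl2-free fibroblasts included Pi16, Sfrp2, Tnn, Postn and Chad cells that the rule keeps out, the 155 of them within the same upper limits served as a second comparison. There 115 of 2823 genes (4.07%) were higher and 108 (3.83%) lower, with a median of -0.16. Of the 160 higher genes 105 (65.6%) were also 2-fold higher against the matched cells, and of the 402 lower genes 80 (19.9%) were also lower. Of the 160 higher genes, 24 had more than 50% of their UMIs in 1 cell.

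Chemokines led the differences. Of 14 CXC chemokines 4 were measured and 3 of these were at least 2-fold higher (median 2.64), and of 17 CC chemokines 3 were measured besides Ccl2, with 2 higher and 1 lower. Ccl7 was found in 23 of the 55 Ccl2-high cells, from 0 to 59 UMIs around a median of 0, and in 34 of the 359 Ccl2-free fibroblasts with at most 15. The summed level was 695 against 43.5 CPM, a log2 ratio of 4.00 (exact conditional interval 3.65 to 4.36), and 5.03 against the matched cells. Ccl7 was therefore high in a minority of members, and 3 cells held 48.7% of it. Cxcl1, which attracts neutrophils, was found in 47 cells with 0 to 871 UMIs around a median of 54, against a median of 0 and a highest count of 897 in Ccl2-free fibroblasts. Its levels were 19124 and 2793 CPM, a log2 ratio of 2.78 (2.73 to 2.83), and 1.94 against the matched cells. The ranges overlapped, since 91 of the 359 Ccl2-free fibroblasts also carried Cxcl1. Cxcl10, an attractant of T cells, had 479 UMIs in 18 cells against 61 in 13 cells, a log2 ratio of 5.32 (4.93 to 5.73). A single cell held 51.1% of it, and without each group's highest cell the ratio was 4.97. Cxcl14 was closer between the groups, at 0.42 (0.25 to 0.59). Cxcl12, the marrow and perivascular chemokine, stood at 2.50, with 91.3% of its UMIs in 1 cell and a ratio of -0.74 without the highest cells. Ccl3 at 1.05 likewise had 85.0% of its UMIs in 1 cell.

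Of the 32 cytokines and growth factors of inflammation, 10 reached 50 summed UMIs, 4 of them at least 2-fold higher and 1 lower, with a median of 0.87. Il6 had 68 UMIs in 10 Ccl2-high cells against 26 in 9 Ccl2-free fibroblasts, a log2 ratio of 3.73 (3.06 to 4.44) and 2.58 against the matched cells. Of the 68 UMIs, 39.7% lay in the Prg4-rich cell ranked 51 and 66.2% in 3 cells. Csf1, the growth factor of macrophages, was spread over 34 cells at 419 against 162 CPM, a log2 ratio of 1.37 (1.1 to 1.65). Inhba, a subunit of activin, stood at 2.00 with 58.8% of its UMIs in 1 cell, and Il1b at 2.05 with 85.7% in 1 cell and 0.20 without the highest cells. The lower member was Il33, an alarmin kept in the nucleus of fibroblasts. It was found in 4 of 55 Ccl2-high cells with at most 2 UMIs and in 144 of 359 Ccl2-free fibroblasts with up to 21, at 12.5 against 320 CPM, a log2 ratio of -4.67 (-6.30 to -3.44). Against the matched cells the value was -3.64. Thinned to 2000 UMIs per cell, Il33 was found in 3.8% of Ccl2-high cells, 31.8% of Ccl2-free fibroblasts and 22.3% of matched ones.

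**Figure D1:**
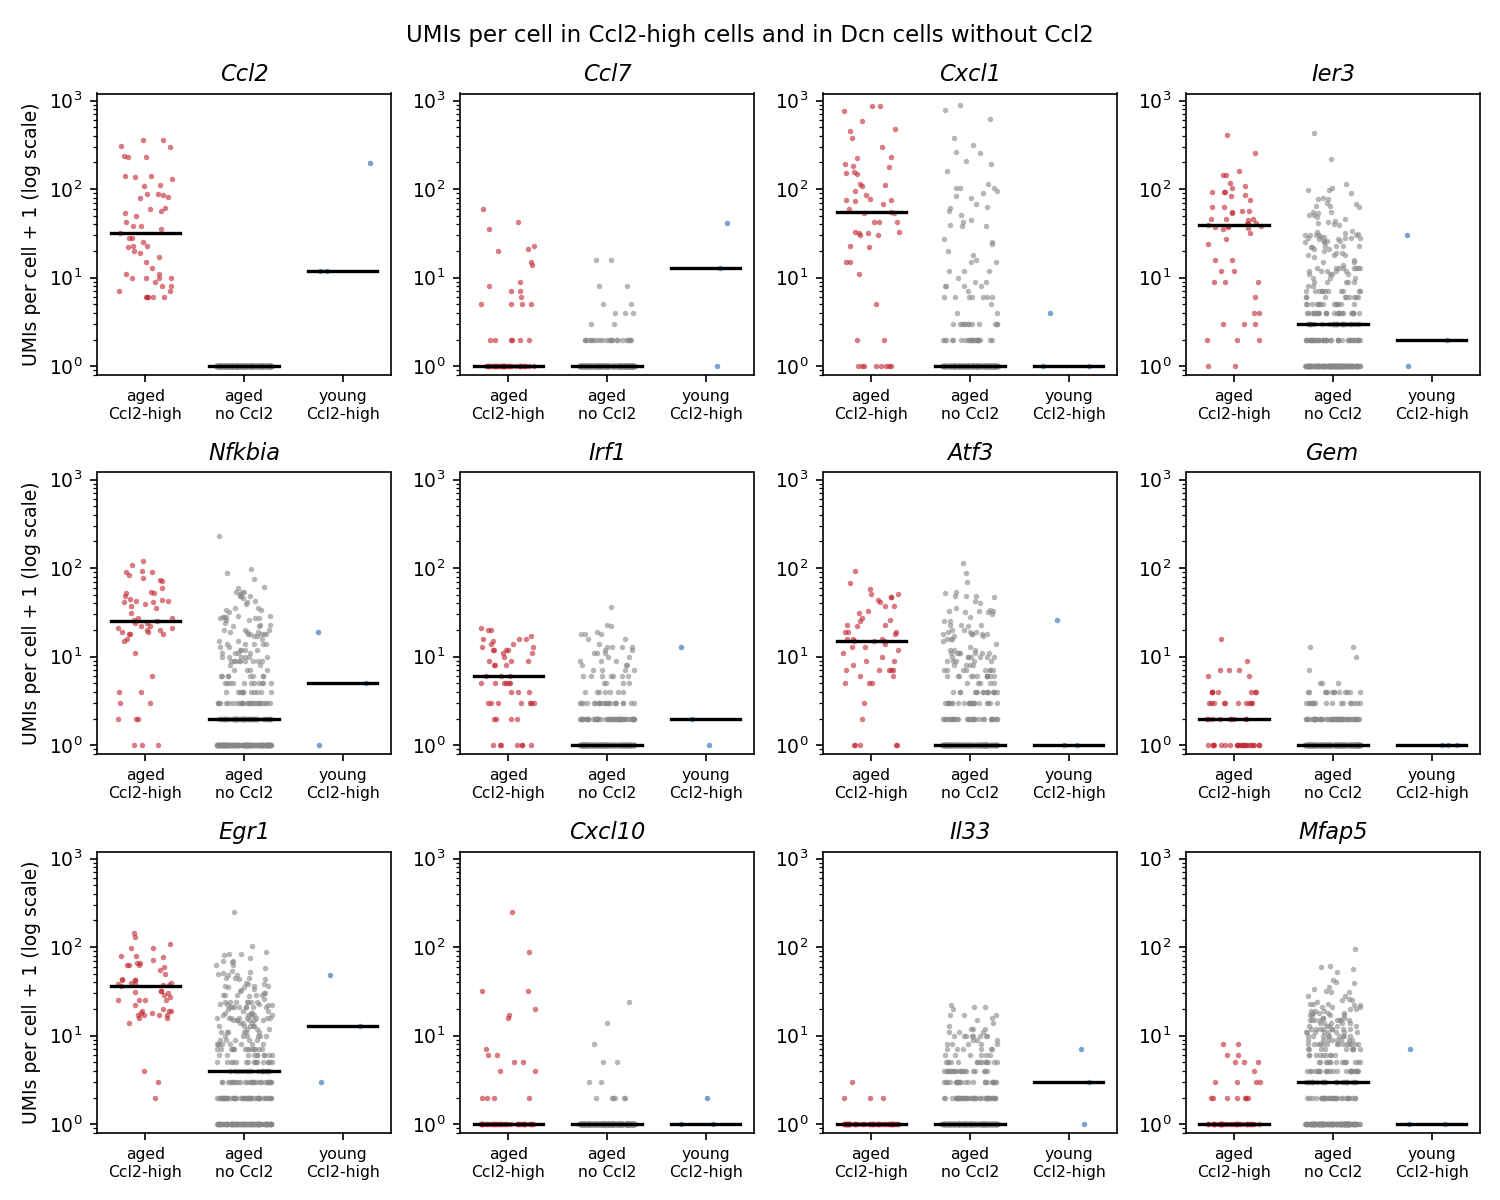
UMIs per cell plus 1 on a log axis for 12 genes in the 55 aged Ccl2-high cells (red), the 359 aged Ccl2-free fibroblasts (grey) and the 3 young Ccl2-high cells (blue), with 1 point per cell and a bar at the median. Ccl2 chose the cells. The aged Ccl2-high median was 54 for Cxcl1, 38 for Ier3 and 35 for Egr1, against 0, 2 and 3 in Ccl2-free fibroblasts, while the ranges overlapped for every gene but Ccl2.

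The given markers other than Ccl2 and Ccl7 encode early response proteins. Ier3, an NF-kB target that limits cell death, had 0 to 402 UMIs around a median of 38 in Ccl2-high cells and a median of 2 in Ccl2-free fibroblasts, with levels of 7557 and 1890 CPM and a log2 ratio of 2.00 (1.93 to 2.07). Nfkbia had medians of 24 and 1 UMIs, levels of 4663 and 1238 CPM and a ratio of 1.91 (1.83 to 2.00). Irf1, a transcription factor of interferon and cytokine signalling, had medians of 5 and 0 and a ratio of 1.77 (1.58 to 1.97). All 3 were found in at least 48 of the 55 cells, so they marked nearly every member. Atf3 had medians of 14 and 0, levels of 2676 and 905 CPM and a ratio of 1.56 (1.45 to 1.67). Gem, a small GTP-binding protein, was sparse, with medians of 1 and 0 UMIs, 33 cells with a UMI and a ratio of 1.58 (1.21 to 1.95). Against the matched cells the 5 ratios were 1.75, 1.51, 1.54, 1.35 and 1.33 for Ier3, Nfkbia, Irf1, Atf3 and Gem.

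The same markers were read at equal depth by thinning each cell to 2000 UMIs, which kept 53 Ccl2-high cells, 330 Ccl2-free fibroblasts and 594 Cd79b cells, B lineage cells that should lack most of these genes. Atf3 was found in 88.7% of thinned Ccl2-high cells, 39.1% of Ccl2-free fibroblasts and 2.5% of Cd79b cells, and unthinned in 90.9%, 45.1% and 7.9%. Ier3 was found in 88.7%, 52.1% and 5.7% (unthinned 96.4%, 61.8% and 13.0%). Cxcl1 was found in 83.0%, 20% and 1.3% (unthinned 85.5%, 25.3% and 4.0%). Ccl7 stood at 28.3%, 3.9% and 0 of 594, which allows up to 0.505% (unthinned 41.8%, 9.5% and 0.4%). These 4 genes were thus far above their level in B lineage cells, whose median depth was 6010 UMIs against 7165. Irf1 was found in 79.2%, 21.2% and 15.3% (unthinned 87.3%, 34.3% and 37.7%) and Nfkbia in 86.8%, 44.5% and 60.4% (unthinned 94.5%, 59.3% and 81.7%). B lineage cells thus carried both as well, Irf1 near and Nfkbia above the share in Ccl2-free fibroblasts. At equal depth 43 of 53 Ccl2-high cells (81.1%, 68.0 to 90.6) carried at least 4 of the 6 given markers besides Ccl2, against 60 of 330 Ccl2-free fibroblasts (18.2%, 14.2 to 22.8) and 28 of 130 matched ones (21.5%, 14.8 to 29.6). The markers were given for these cells with earlier results of these data known, so this count is no independent support.

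The NF-kB list, with 25 members, had 18 measured, of which 13 were at least 2-fold higher and none lower, with a median of 1.36 against -0.19 over all genes. Against the matched cells 8 of 11 were higher, with a median of 1.25. The list includes Nfkbia, a marker given for these cells, so its counts are not independent of that choice. Its highest member was Tnfaip6 at 2.71, with 82.9% of its UMIs in 3 cells. Members that restrain the pathway were among the higher ones. Nfkbiz, an atypical IkB protein, stood at 602 against 180 CPM and a log2 ratio of 1.74 (1.5 to 1.98). Nfkbib stood at 1.91 (1.44 to 2.37), and Zc3h12a, an RNase that destroys cytokine messages, at 1.47 (0.92 to 2.01). Sod2, the mitochondrial superoxide dismutase that NF-kB induces, stood at 1964 against 752 CPM (1.38, 1.26 to 1.51). The subunit Nfkb2 stood at 1.62 and Rel at 1.34 on 23 and 17 UMIs in the Ccl2-high cells, while Nfkb1 at 0.38 (-0.21 to 0.93) and Rela at 0.07 (-0.53 to 0.62) did not differ beyond counting error. The leukocyte adhesion molecules Icam1, at 451 against 73.6 CPM (2.62, 2.29 to 2.94), and Vcam1, at 181 against 73.2 CPM (1.30, 0.88 to 1.72), were also higher.

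Of 39 AP-1 and other immediate early genes 31 were measured, and 18 of these were at least 2-fold higher and none lower. Its median was 1.07, 30 of the 31 lay above 0, and against the matched cells 16 of 28 were higher with a median of 1.05. Egr1, a zinc finger factor, was found in all 55 cells with 1 to 145 UMIs around a median of 35, against a median of 3 in Ccl2-free fibroblasts, at 5746 and 1875 CPM (log2 ratio 1.62, 1.54 to 1.69). Junb was also in all 55 cells, with 8723 against 3344 CPM (1.38, 1.32 to 1.44). Zfp36, which destabilises cytokine messages, stood at 3296 against 978 CPM (1.75, 1.65 to 1.85). The nuclear receptors Nr4a3, Nr4a2 and Nr4a1 stood at 2.60, 2.04 and 1.23, Myc at 1.71 and Maff at 1.72. Fos, at 4720 against 2761 CPM, was closer (0.77, 0.70 to 0.85), as were Jund at 0.78 and Dusp1 at 0.61, a phosphatase that shuts down MAP kinases. The member of the list below 0 was Cebpd at -0.38. The part of tissue dissociation in these values was not tested.

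Genes of the integrated stress response were nearer to the rest. Of 8 measured members 2 were higher, Atf3 and the phosphatase subunit Ppp1r15a (1264 against 364 CPM; 1.80, 1.63 to 1.96), with a median of 0.67. Atf4 stood at 0.79 (0.64 to 0.94), Ddit3 at 0.65 (0.31 to 0.97) and the chaperone Hspa5 at 0.24. Heat shock genes had 2 of 13 higher, Dnaja1 at 1.01 and Cryab at 2.15 with 73% of its UMIs in 1 cell. Their median was 0.42, with Hspa8 at 0.54 and Hspa1b at -0.44. Among growth arrest genes 4 of 15 were higher and 1 lower. Over all genes 3.46% were higher and 8.71% lower. Against the matched cells 2 of 8 integrated stress response, 1 of 13 heat shock and 4 of 14 growth arrest genes were higher, with Dnaja1 at 0.61. The stress-induced Gadd45g (3479 against 1122 CPM; 1.63, 1.54 to 1.73) and Gadd45b (1.35, 1.22 to 1.48) were higher, with Mdm2 at 1.40 and Plk3 at 1.16. Cdkn1a, the cell cycle inhibitor p21, stood at 0.54 (0.07 to 1.00). The metallothioneins Mt1 and Mt2A stood at 1.41 and 1.12.

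**Figure D2:**
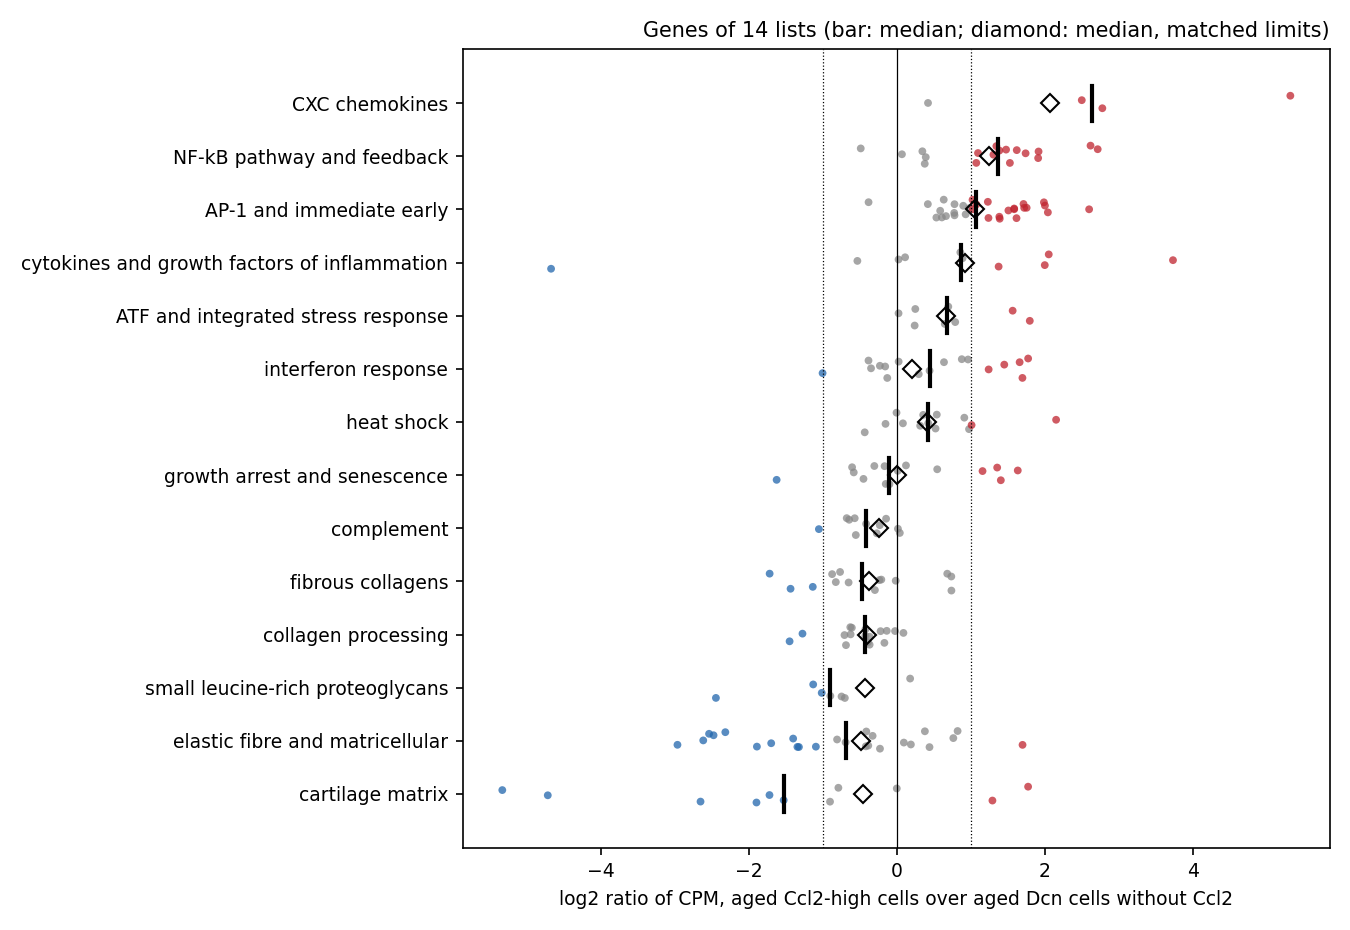
Log2 ratio of CPM, aged Ccl2-high cells over aged Ccl2-free fibroblasts, for the measured genes of 14 lists, with 1 point per gene, a bar at the list's median and a diamond at its median against fibroblasts within the same limits. Points at or past 1 are red and those at or below -1 blue, and genes without a UMI in the Ccl2-high cells stand at a floor of 3 counts. The NF-kB median was 1.36 and the AP-1 median 1.07, whereas the elastic fibre median was -0.69.

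Of 7 measured prostaglandin and hyaluronan enzymes 3 were higher and 2 lower (median 0.13), and of 18 matrix proteases and inhibitors 2 were higher and 5 lower (median -0.14). The shares over all genes were 3.46% higher and 8.71% lower. Against the matched cells 2 of 4 of these enzymes were higher and none lower. Of 16 proteases and inhibitors 2 were higher and 2 lower there. Tnfaip6, which binds hyaluronan, stood at 2109 against 322 CPM (2.71, 2.56 to 2.86) in 21 cells. Of its UMIs 82.9% lay in 3 cells, and without the 4 cells rich in Bglap, S100a8 or Prg4 its ratio was 1.1. Has1, a hyaluronan synthase, stood at 1003 against 208 CPM (2.27, 2.07 to 2.47) in 33 cells. Ptgs2, the inducible prostaglandin synthase, stood at 321 against 88.0 CPM (1.87, 1.53 to 2.20) in 17 cells. Its constitutive counterpart Ptgs1 had 3 UMIs against 53 (-1.80, -4.12 to -0.17), and Hpgd, which breaks prostaglandins down, had 4 against 56 (-1.46, -3.39 to -0.03). Against the matched cells Hpgd stood at -1.24 (-3.25 to 0.34), no difference beyond counting error. Angptl4, an inhibitor of lipoprotein lipase, was found in 35 cells at 647 against 81.1 CPM (3.0, 2.71 to 3.29). Plau, the urokinase protease, stood at 1.62 (0.99 to 2.23). Mmp3, stromelysin, was lower at 228 against 833 CPM (-1.87, -2.19 to -1.56) and -1.08 against the matched cells.

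Of 17 interferon response genes 5 were higher and 1 lower with a median of 0.44, above the median of -0.19 and the 3.46% higher over all genes. Against the matched cells 2 of 14 were higher with a median of 0.20, beside 4.07% and -0.16 over all genes. The list includes Irf1, a marker given for these cells, which was its highest member at 1.77. The 2 higher against the matched cells were Irf1 at 1.54 and Isg15 at 1.31, so these counts are no independent support. Isg15 stood at 1.66 with 57.7% of its UMIs in 1 cell and at 0.71 without the highest cells, and Ifit3 at 1.45 (0.81 to 2.06). None of 11 class I genes was 2-fold apart, with B2m at 0.20 (0.14 to 0.26). Of 11 complement genes none was higher and 1, Cfb, was lower at -1.06, while C3 stood at -0.68 (-1.95 to 0.38) on 8 against 65 UMIs. The medians of the class I and complement lists, -0.21 and -0.42, lay below that of all genes.

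Matrix genes went both ways. Fn1, fibronectin, stood at 8954 against 5281 CPM (0.76, 0.71 to 0.82) and 0.33 against the matched cells, Col4a1 at 0.74 and Sparc, a collagen-binding protein, at 0.44. Col3a1 stood at 4234 against 4283 CPM (-0.02, -0.09 to 0.06, above 0 under TMM scaling) and Bgn at 0.18. Col1a1 stood at 0.68, with 62.0% of its UMIs in the Bglap-rich cell and -0.63 without the highest cells. Of 14 fibrous collagen genes none was higher and 3 lower, and of 7 small leucine-rich proteoglycans 3 were lower, with medians of -0.48 and -0.90, and against the matched cells none of 9 and none of 6 were 2-fold lower. The elastic fibre and matricellular list had 1 of 25 higher and 11 lower with a median of -0.69, and 6 of 21 lower against the matched cells. Beside these counts, 8.71% of all genes were lower in the main comparison and 3.83% against the matched cells. Mfap5, a microfibril protein, was found in 19 of 55 Ccl2-high cells with at most 7 UMIs and in 221 of 359 Ccl2-free fibroblasts with up to 93, at 135 against 1059 CPM (-2.97, -3.38 to -2.58), and -1.88 against the matched cells. Fbln1 and Fbln2, fibulins, stood at -2.48 and -2.54, and at -1.89 and -1.87 against the matched cells. Fbn1 stood at -1.70 and -0.97, and Lum at -0.90 and -0.45, so much of these differences was smaller once the limits were equal. The higher member was Ccn1, a growth factor induced matricellular gene, at 848 against 261 CPM (1.70, 1.5 to 1.90). Igfbp6, which binds IGF2, was lower at 2182 against 6602 CPM (-1.6, -1.70 to -1.5).

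Cartilage and lining genes depended on few cells. Of 11 cartilage matrix genes 6 were lower and 2 higher, but the lower ones came mostly from few comparison cells: Cytl1, Clec3a and Snorc had 614, 464 and 401 UMIs in 22, 19 and 12 Ccl2-free fibroblasts and none in Ccl2-high cells. Prg4 stood at 13308 against 3896 CPM (1.77), with 44.3% of its UMIs in 1 cell and 87.5% in 3. Leaving out the 4 cells rich in Bglap, S100a8 or Prg4 turned it to -0.64. Camp, S100a8 and S100a9, neutrophil granule genes, stood at 3.01, 2.56 and 2.58 with 99.2%, 98.3% and 98.4% of their UMIs in 1 cell. Without each gene's highest cells they stood at -2.36, -2.67 and -2.80. Fibroblast transcription factors had 3 of 19 lower and none higher, beside 8.71% lower over all genes, with Prrx1 at -0.39, Twist1 at -0.45 and Osr1 at -1.27. Against the matched cells none of 14 was 2-fold apart, with a median of -0.09.

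**Figure D3:**
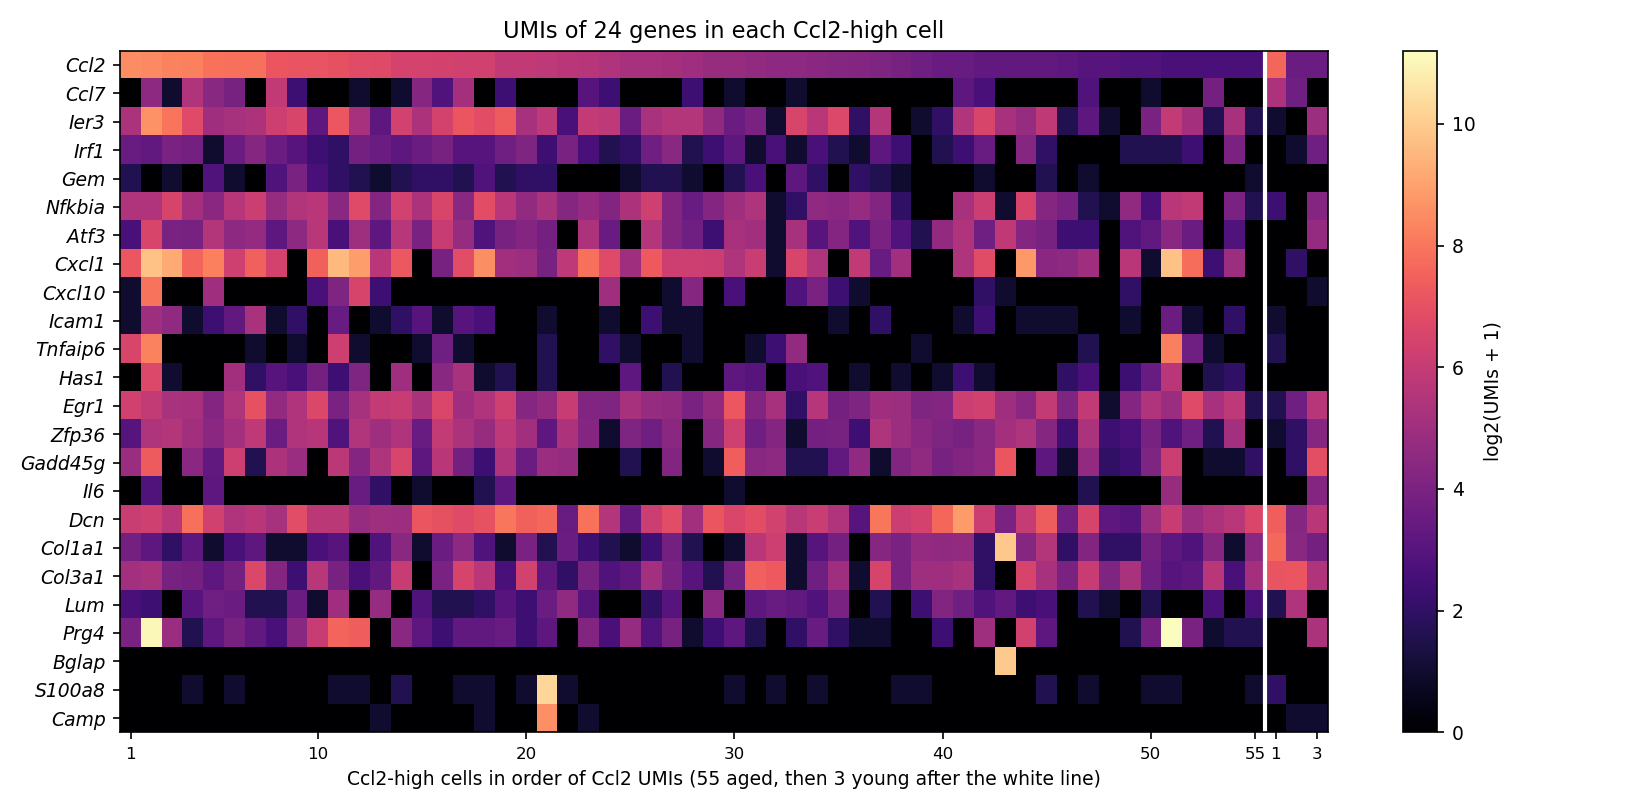
UMIs per cell as log2(UMIs + 1) for 24 genes in each Ccl2-high cell, ordered by Ccl2, with 55 aged cells left and 3 young cells right of the white line. Egr1 and Zfp36 run through nearly all aged cells, Ccl7, Cxcl10 and Il6 through some, and Bglap, S100a8 and Camp stand in single cells.

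Within the 55 aged cells the genes did not move with Ccl2 to the same degree. Per UMI, Spearman's rho with Ccl2 over the 55 cells of 1 library, a description, was 0.45 for Irf1, 0.44 for Ier3 and for Nfkbia, 0.40 for Gem, 0.38 for Cxcl1, 0.37 for Ccl7 and 0.22 for Atf3, and -0.42 for Col1a1. Such correlations are weak and share the cells' depth. In the 44 cells with at least 5000 UMIs they were 0.51 for Irf1, 0.50 for Ier3 and -0.49 for Col1a1.

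Sums over steps of Ccl2 count among the aged Dcn cells within the limits put numbers on this. From 155 cells without Ccl2 over 31 with 1 to 2 and 14 with 5 to 9 to 24 with 40 or more UMIs, Ier3 read 2250, 2869, 3972 and 10919 CPM. Atf3 read 1050, 1536, 1725 and 3105 CPM, and Egr1 1706, 3239, 5888 and 6050. Egr1 thus differed little between the lowest and the highest step of Ccl2-high cells, whereas Ier3 was far higher in the highest. The step between, 17 cells with 10 to 39 UMIs, read 4751 for Ier3, 2734 for Atf3 and 5101 for Egr1, and the thin step of 6 cells with 3 to 4 UMIs read 2639, 1099 and 6212. Over all 6 steps from the lowest, Ccl7 read 21.3, 9.25, 27.5, 266, 125 and 1232 CPM, Cxcl1 4999, 6672, 14843, 19284, 7109 and 25983, and Igfbp6 6048, 3785, 852, 2204, 3048 and 1672. Irf1 read 318, 472, 1979, 607, 735 and 1180 CPM, and Nfkbia 1640, 2480, 5140, 3769, 3245 and 5915. Both were thus higher in the 6 cells just below the threshold than in the Ccl2-high steps of 5 to 9 and 10 to 39 UMIs. None of these genes followed the steps without a break, although Ier3, Atf3 and Irf1 broke only at the step of 6 cells. The median depth of these steps ran from 5528 to 7510.5 UMIs, and the part of depth in the order was not tested.

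**Figure D4:**
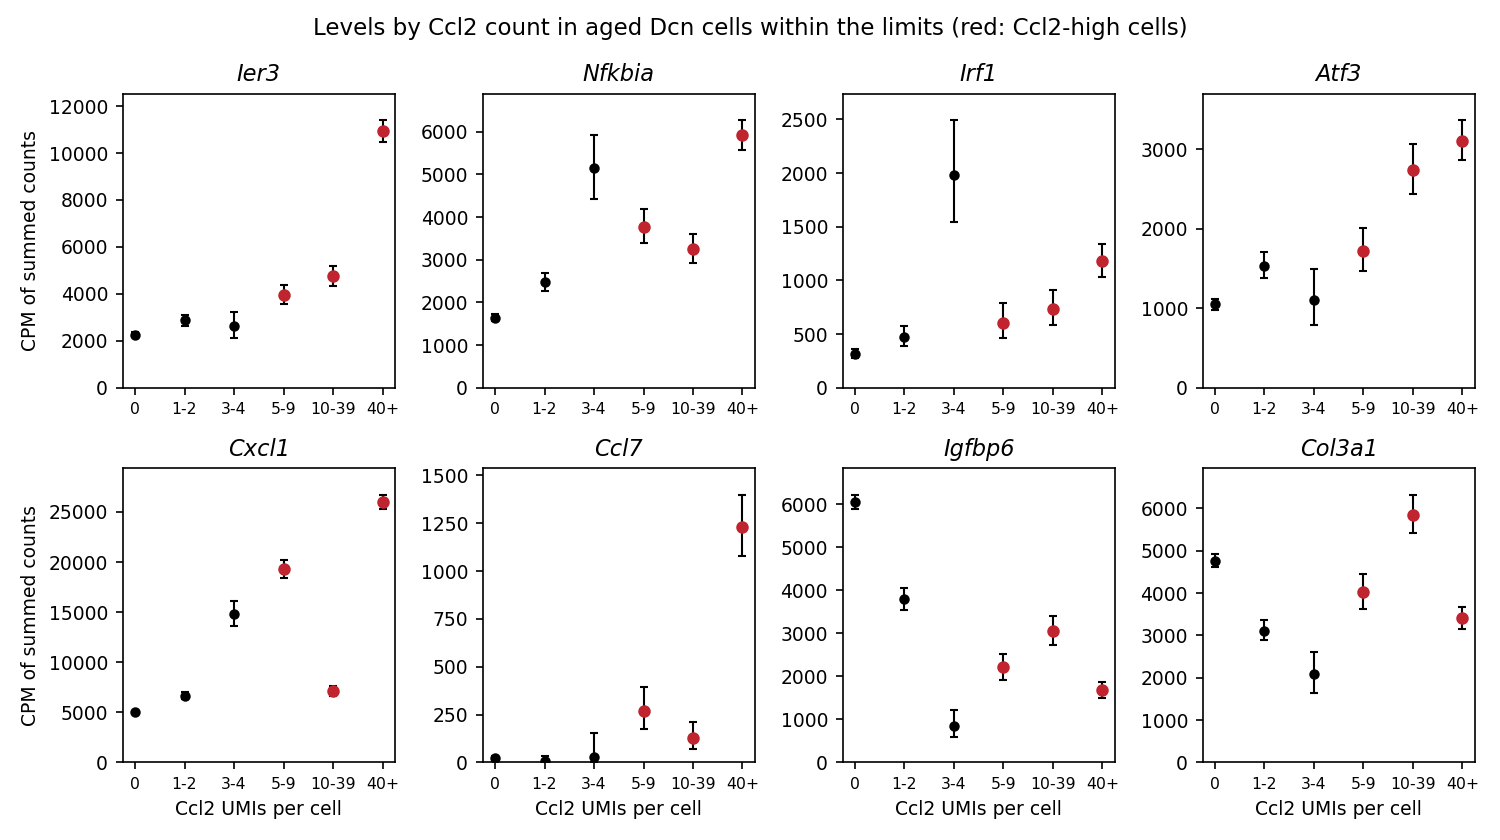
CPM of summed counts for 8 genes in aged Dcn cells within the limits, by Ccl2 UMIs per cell, with exact Poisson intervals and the 3 steps of Ccl2-high cells in red. The steps hold 155, 31, 6, 14, 17 and 24 cells, and the step of 6 cells is thin. Ier3 reaches 10919 CPM in the highest step against 2250 without Ccl2.

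The limits on Tnn, Pi16, Sfrp2, Postn and Chad set the members apart from 42 other aged Dcn cells with 5 or more Ccl2 UMIs, so the same contrast was read outside them (42 cells against 204 without Ccl2). There 107 of 3413 genes (3.14%) were at least 2-fold higher and 208 (6.09%) lower. The log2 ratios inside and outside the limits were 1.54 and 1.59 for Irf1, 1.51 and 1.54 for Nfkbia, 1.35 and 1.81 for Atf3, 1.75 and 1.22 for Ier3, 4.70 and 4.73 for Cxcl10 and 1.6 and 1.64 for Gadd45g. Ccl7 stood at 5.03 inside and 3.61 outside, Cxcl1 at 1.94 and 2.55, and Il33 at -3.64 and -1.39. NF-kB members were 2-fold higher in 8 of 11 inside and 7 of 13 outside, and AP-1 members in 16 of 28 and 11 of 27. These higher markers were therefore seen in Ccl2-carrying Dcn cells on both sides of the limits.

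Set directly against these 42 cells, the Ccl2-high cells had 45 of 1846 genes (2.44%) at least 2-fold higher and 48 (2.6%) lower. Ccl7 stood at -0.06 (-0.31 to 0.19) and Atf3 at -0.07 (-0.19 to 0.06), no difference beyond counting error. Irf1 stood at 0.38 (0.15 to 0.62), Nfkbia at 0.75 (0.64 to 0.87), Ier3 at 0.99 (0.90 to 1.09) and Cxcl1 at 1.43 (1.36 to 1.49). Mfap5 at -2.31 (-2.77 to -1.88) and Il33 at -3.74 (-5.41 to -2.44) were lower. Of the NF-kB list 1 of 10 and of the AP-1 list 1 of 26 was higher, with medians of 0.69 and 0.31. After thinning, 21 of these 42 cells (50%, 34.2 to 65.8) carried 4 or more of the 6 other markers, against 43 of 53 Ccl2-high cells (81.1%).

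Other aged fibroblasts gave the frame. They were the 93 Dcn cells with Pi16, 71 with at least 2 Sfrp2 and 111 with at least 2 Tnn UMIs, groups that can share cells and held Ccl2 themselves at 870, 758 and 1669 CPM. Against Pi16 cells, adventitial-type fibroblasts by that marker, 185 of 2346 genes (7.89%) were higher and 264 (11.3%) lower. After Bglap, Ptgs2 led with 128 UMIs against 5 (5.09). Cxcl10 (3.48), Tnfaip6 (3.22) and Ier3 (2.89) followed the neutrophil genes of 1 cell, while Il33 (-6.09), Mfap5 (-4.41), Fbln2 (-3.83), Ccdc80 (-3.44) and Fbn1 (-3.20) were lower. Against Sfrp2 cells, 175 of 2053 (8.52%) were higher and 182 (8.87%) lower, with Cxcl10 at 479 against 0 UMIs and Cxcl1 at 5.20, and with Il33 (-5.30) and Fbln1 (-3.40) lower. Against Tnn cells 125 of 2552 (4.9%) were higher and 102 (4%) lower. There Tnfaip6 (3.61), Inhba (3.58), Angptl4 (3.25) and Cxcl1 (3.10) were higher, and Mmp3 (-2.80), Col12a1 (-2.36), Lox (-2.23) and Lum (-2.01) lower. The NF-kB list had a median of 2.24 against Pi16, 3.03 against Sfrp2 and 1.19 against Tnn cells. The AP-1 list had 1.68, 1.37 and 0.73, and Tnn cells were the nearest of the 3 by both lists.

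As a share of their UMIs, leukocytes with Ccl2 carried less of most given markers, though they held more UMIs per cell. Against the 280 aged Ptprc cells with 5 or more Ccl2 UMIs (median 13478.5 UMIs), the Ccl2-high fibroblasts had Ccl2 at 10022 against 2548 CPM, a value the rule used. Ccl7 stood at 695 against 130 CPM (2.42, 2.21 to 2.63), Cxcl1 at 19124 against 1159 (4.04), Ier3 at 7557 against 478 (3.98), Atf3 at 2676 against 255 (3.39) and Gem at 253 against 11.1 (4.51). Nfkbia was closer, at 4663 against 2009 CPM (1.21), Nfkbiz stood at 602 against 603 CPM (-0.00, -0.20 to 0.19), and Ptgs2 at 321 against 460 CPM was lower (-0.52, -0.79 to -0.26). In this comparison 789 of 6569 genes (12%) were higher and 2160 (32.9%) lower. The AP-1 list had 26 of 35 higher, and the NF-kB list 5 of 23 higher and 9 lower.

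**Figure D5:**
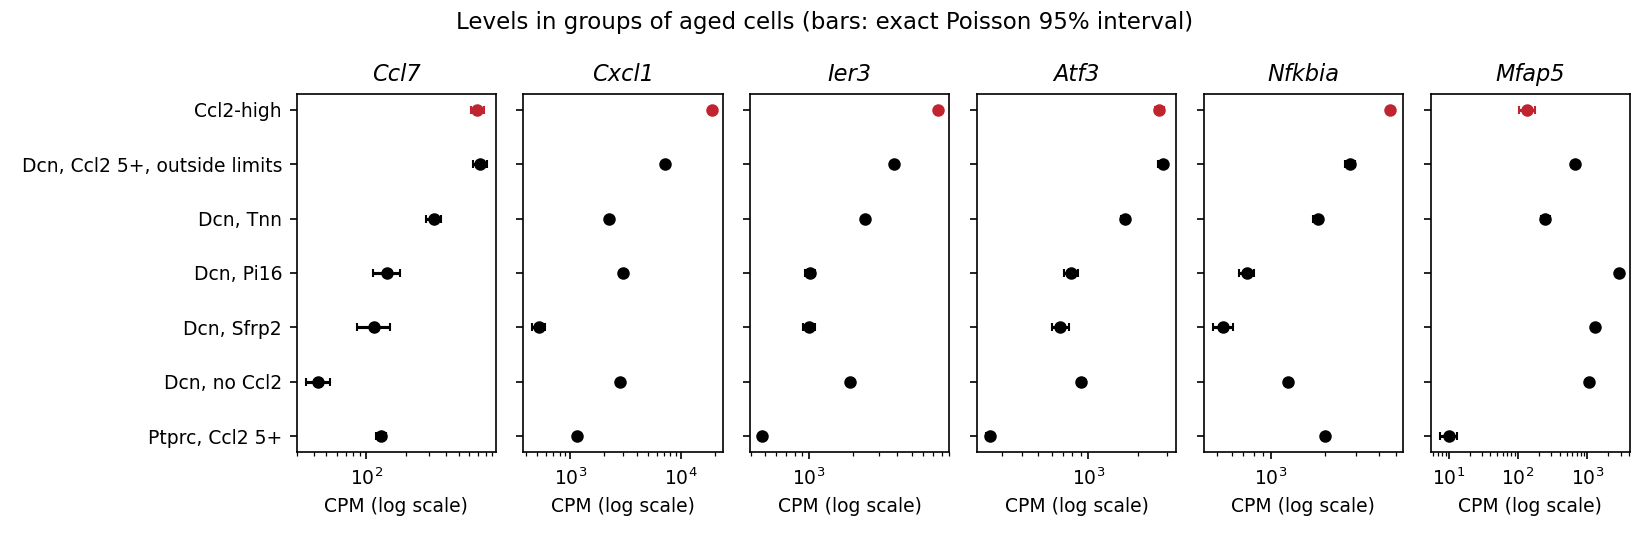
CPM on a log axis for 6 genes in 7 groups of aged cells, with exact Poisson intervals and the Ccl2-high cells in red. Ccl7 and Atf3 lay at like levels in Dcn cells with Ccl2 outside the limits, Ier3, Cxcl1 and Nfkbia lay highest in the Ccl2-high cells, and Mfap5 lay below all other Dcn groups.

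The 3 young Ccl2-high cells carried 197, 11 and 11 Ccl2 UMIs among 12482, 10871 and 13138 in all. Ccl7 had 40, 12 and 0 UMIs, Ier3 had 1, 0 and 29, and Nfkbia 4, 0 and 18. Atf3 had 0, 0 and 25, Irf1 0, 1 and 12, Cxcl1 0, 3 and 0 and Gem none. Egr1 had 2, 12 and 48 UMIs, Fos 2, 19 and 76, Gadd45g 0, 3 and 123, and Il6 0, 0 and 18. These were highest in the third cell, and 2 of the 3 cells were Ccl2 and Ccl7 carrying Dcn cells without the other given markers beyond 4 UMIs. A single young cell held 239 UMIs of Tagln, a smooth muscle gene, against 1 UMI in all 55 aged cells. The young cells therefore matched the label in part.

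Between the ages, Cxcl1 was 19124 CPM in the aged and 82.2 CPM in the 3 young Ccl2-high cells, a log2 ratio of 7.86 (6.31 to 10.1) on 3 young UMIs. Of 1098 genes 194 (17.7%) were at least 2-fold higher in the aged and 136 (12.4%) at least 2-fold lower, and with 3 cells on 1 side a single cell can decide such a value. Mmp3 (-3.35), Fbn1 (-2.94) and Igfbp7 (-2.68) were lower in the aged cells. Against the 63 young Ccl2-free fibroblasts, 353 of 2692 genes (13.1%) were higher and 325 (12.1%) lower in the 3 cells, and 217 of the 353 had more than 50% of their UMIs in 1 cell. There Ccl7 had 52 UMIs against 1, Vcam1 stood at 3.6 (2.85 to 4.31), Irf1 at 3.02 (2.01 to 3.93), Ier3 at 2.11 (1.51 to 2.67) and Cxcl1 at -1.32 (-3.61 to 0.24). In summed counts Ccl7, Irf1 and Ier3 thus lay above the Ccl2-free fibroblasts in either library, and Cxcl1 in the aged library alone. In the young library Irf1 and Ier3 rested on 1 cell, with 12 and 29 UMIs against at most 1 in each other cell. Age cannot be told apart from the library.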

How the data were processed

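Per the labels' protocols, minced meniscus was digested, strained, sorted for viable cells and run on a 10x 3' kit. The deposited matrices hold raw UMI counts per gene and barcode, made with Cell Ranger 6.1.1, per the file headers and the submitters' processing notes; the genome build is not given in the sources used here. Barcodes under 500 genes or above 20% mitochondrial counts were removed (2337 aged and 1141 young barcodes). Doublets were not called here. The members, markers and 28 gene lists were chosen with earlier results of these data known.

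Counts were summed over the cells of a group and scaled to CPM. Shares carry Clopper-Pearson, levels exact Poisson and ratios exact conditional binomial 95% intervals; PCR and animal variation are not in them. A gene at 0 in 1 group was set at a floor of 3 counts. Genes needed 50 summed UMIs, the rule's own genes were left out of counts, and "higher" or "lower" means at least 2-fold by size alone. Genes were named as the 15 largest ratios in each direction (8 against other groups) among those with at least 100 summed UMIs and 50 CPM, without mitochondrial, ribosomal, haemoglobin, immunoglobulin and uncharacterised genes, plus the given markers and up to 6 members per list with most UMIs. Some genes that these rules name are left out of the text. Other list members, and cells described singly, were chosen after their values were seen. Bglap, S100a9 and other genes carried by 1 cell are given with that cell.

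Alternatives covered the thresholds of the rule, matched limits, depth, thinning to 2000 UMIs, edgeR 4.0.16 TMM and DESeq2 1.42.0 scaling (no test of either was run), other totals, per-cell means, the count minimum and cells left out. The ratio and interval were tested on simulated data. The tools were R 4.3.3 and Python 3.11.15 with pandas 2.3.3, matplotlib 3.10.9, scipy 1.17.1 and numpy 2.4.6.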

Additional observations from a re-analysis of the deposited data

Results flagged for a closer look

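For 3 neutrophil granule genes the ratio of Ccl2-high cells over Dcn cells without Ccl2 pointed in opposite directions in the libraries. Camp stood at -2.38 (log2) in the young and 3.01 in the aged library. S100a8 stood at -4.04 and 2.56, and Ngp at -2.63 and 2.40. The differences were not tested. In the aged library 1 cell held 99.2% of Camp, 98.3% of S100a8 and 94.7% of Ngp, and the young values rest on 3 cells.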

How the results depend on the processing

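The aged cells numbered 55 (0.904% of kept cells) and the young 3 (0.0342%). A Ccl2 minimum of 10 gave an aged share of 0.674%, 1000 genes and 10% mitochondrial counts gave 1.54%, and no upper limits gave 1.59% (97 cells) and 0.217% of young cells (19 cells). Beside 160 higher and 402 lower genes, the comparison with matched limits gave 108 lower, thinning to 2000 UMIs gave 93 and 231, a minimum of 4 summed UMIs 1415 and 1228, a minimum of 200 gave 74 and 85, and a 4-fold size 31 and 77. Leaving out each gene's highest cell gave 105 and 619; this removes 1 of 55 against 1 of 359 cells, and the median over all genes was then -0.33. TMM scaling, which shifts ratios by 0.20, gave 237 and 273, and DESeq2 scaling 236 and 273. Leaving out cells with any leukocyte, erythroid or endothelial marker UMI kept 2 Ccl2-high and 26 comparison cells and gave 28 and 79. In those 2 cells Tnfaip6 (-4.02), Tfpi2 (-0.57), Has1 (-0.73), Prg4 (-2.08), Mt1 (-0.13), Mt2A (-1.49), Gadd45g (-0.71) and the IGF and glucocorticoid list medians (-1.87 and -1.17) changed sign.

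Without each gene's highest cell, Camp (-2.36), S100a9 (-2.80), S100a8 (-2.67), Cxcl12 (-0.74), Tf (-2.14) and the cytokine and IGF list medians (-0.049 and -0.61) changed sign. Without the 4 cells rich in Bglap, S100a8 or Prg4, so did Camp (-3.78), Lcn2 (-3.15), S100a9 (-3.55), S100a8 (-3.16), Ngp (-1.59), Tf (-2.31) and Prg4 (-0.64). Both of these settings, and leaving out 1 of the 2 alike cells, were chosen after seeing the data. Thinned, the aged over young ratio was -0.055 for Angptl4 and 0.68 for Ccl7, each of the other sign. Of 73 named genes at least 2-fold apart, 59 kept their direction and 39 their 2-fold size under every setting run that left at least 50 summed UMIs. Other causes of these moves were not tested. No paired analysis was possible because there is 1 library per age and the labels carry no replicate numbers. Few UMIs limit Gem and Il6, and the number of cells limits the young values.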

Other observations

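Smaller gene groups of the Ccl2-high cells were read the same way against aged Dcn cells without Ccl2. Of 13 measured cytokine receptor and signalling genes, the TWEAK receptor Tnfrsf12a (log2 ratio 1.33), the adaptor Myd88 (1.16) and Ifngr2 (1.05) were higher and Il10rb (-1.37) and Stat6 (-1.08) lower. Among 13 glycolysis and hypoxia genes the hexokinase Hk2 stood at 1.87, and none was lower. The clock genes Ciart and Per3 stood at 1.08 and -2.22. Among 13 regulators of WNT, BMP and TGF-beta signalling 4 were lower and none higher, with Tgfbi at -1.25 and Id1 at -1.11. Against the matched cells 1 of 11 was lower, with a median of -0.02 and Id1 at -0.95. Beside these counts, 3.46% of all genes were higher and 8.71% lower in the main comparison.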
